A study of Mus musculus with 4 samples.

Results

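The leptin and adiponectin receptors and the genes that carry or stop their signals were examined in mouse cells titled as endothelial cells. These had been made from induced pluripotent stem cells (iPSCs), cells of an adult body returned by reprogramming to a state from which any tissue can be formed. The members were the leptin receptor Lepr, the adiponectin receptors Adipor1 and Adipor2, the adiponectin-binding cadherin Cdh13, the kinase Jak2 and the inhibitor Socs3. They were taken as every probe set of the array whose annotated gene symbol is one of these 6, which gave 18 of 45037 probe sets and 6 of 18193 genes. The cells came from 2 mice with diet-induced obesity (DIO) and from 2 healthy control mice, all aged 24 weeks, with 1 array per mouse. Every culture was kept in endothelial medium and lifted with trypsin for RNA isolation. Strain, sex and diet are not given in the labels. The titles speak of derived endothelial cells, but the entry for cell type reads iPSC. A sort is not mentioned, nor how many iPSC lines stand behind a mouse. P-values therefore rest on how far these 4 samples differ, which may in part be technical. Arrays are called DIO 1, DIO 2, control 1 and control 2 after the mouse number, and all levels are log2 expression levels as deposited.

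Leptin is a hormone that fat cells release in proportion to their stores. Its receptor has no kinase of its own and works through JAK2, which is bound to its inner part and phosphorylates both the receptor and the transcription factor STAT3. STAT3 in turn switches on Socs3, whose protein blocks the receptor and JAK2 and so closes a negative feedback loop. Adiponectin, also made by fat cells, binds the membrane proteins AdipoR1 and AdipoR2, which are linked to AMP-activated kinase (AMPK), to PPAR-alpha and to the breakdown of ceramide. T-cadherin, the product of Cdh13, is held on the outer membrane by a lipid anchor, is abundant on vascular endothelium and captures the large forms of adiponectin. Endothelial cells are known to respond to both hormones.

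Promoter windows from RefSeq (GRCm38.p6), 250 bases before to 50 after an annotated start, matched 5 of the 6 members (not Cdh13), with 7 windows between them. They were searched for TTCNNNGAA, the palindromic core that STAT factors bind, which reads the same on both strands. The Socs3 window is shown because Socs3 is the feedback target of the pathway, and both Lepr windows because the probe sets of Lepr disagreed with each other and RefSeq lists 2 starts for the gene. Capitals mark the motif.
Socs3, chr11:117969317-117969616, minus strand: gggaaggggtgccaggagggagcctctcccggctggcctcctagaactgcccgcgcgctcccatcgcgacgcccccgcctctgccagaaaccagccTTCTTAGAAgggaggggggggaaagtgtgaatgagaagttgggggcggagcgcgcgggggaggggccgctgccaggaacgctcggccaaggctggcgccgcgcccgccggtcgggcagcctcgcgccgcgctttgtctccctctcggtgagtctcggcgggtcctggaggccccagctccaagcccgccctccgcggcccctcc
Lepr start 1, chr4:101717157-101717456, plus strand: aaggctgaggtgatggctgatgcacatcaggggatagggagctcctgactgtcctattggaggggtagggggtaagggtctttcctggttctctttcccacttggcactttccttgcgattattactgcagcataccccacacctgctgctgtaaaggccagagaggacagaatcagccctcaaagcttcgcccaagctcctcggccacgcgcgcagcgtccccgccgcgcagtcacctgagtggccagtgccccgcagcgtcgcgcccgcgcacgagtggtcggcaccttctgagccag
Lepr start 2, chr4:101717656-101717955, plus strand: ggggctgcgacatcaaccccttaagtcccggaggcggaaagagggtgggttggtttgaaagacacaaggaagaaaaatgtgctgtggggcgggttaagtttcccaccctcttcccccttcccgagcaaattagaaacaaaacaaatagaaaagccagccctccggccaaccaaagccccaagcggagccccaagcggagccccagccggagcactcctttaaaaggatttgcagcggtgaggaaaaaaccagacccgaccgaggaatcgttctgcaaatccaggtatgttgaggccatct
The Socs3 window held 1 match, TTCTTAGAA, which begins 154 bases before the start. The other 6 windows, of Lepr, Adipor1, Adipor2 and Jak2, held 0. Of 32851 windows of the same length in the RefSeq table, 8.30% held the motif. A match describes letters and does not show that a factor binds there.

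The arrays were first checked for the cells they represent. The 15 endothelial markers averaged 6.11 and 5.99 in DIO 1 and 2 and 6.19 and 6.29 in control 1 and 2. Of these 15, 4 (Emcn, Erg, Fli1 and Tie1) were dimmer than the 95th percentile of sensory receptor probe sets, a gauge given with the brightness plot, while Cdh5, the endothelial cadherin, was at 8.48 and 9.34 in DIO and 8.37 and 8.87 in control. The 8 adipocyte markers averaged 6.22 and 6.63 in DIO and 6.34 and 6.90 in control. The 10 pluripotency markers averaged 10.81 and 9.76 in DIO and 10.31 and 9.37 in control. Of these, 0 were dimmer than the sensory 95th percentile, so pluripotency genes were still read in these cells. All 10 had a higher DIO mean, against 53.3% of all genes, and 8 were highest in DIO 1. Control 2 stood apart by its epidermal markers: 11 of 11 were highest there, and the list averaged 8.24 and 9.14 in DIO and 6.91 and 11.98 in control. Smooth muscle and mesenchyme markers averaged 6.69 and 6.79 in DIO and 6.38 and 6.61 in control. Of these 10, 5 were higher on each DIO array than on each control (21.4% of all genes). Lower on each were 0 (17% of all genes). The DIO mean was higher for 6 of the 10 and lower for 4, against 53.3% and 46.7% of all genes. Among them, Tagln was at 9.64 and 9.44 in DIO and 8.94 and 8.26 in control. Acta2 was at 10.00 and 10.09 in DIO and 9.66 and 8.61 in control. Pdgfrb was at 7.83 and 8.53 in DIO and 7.07 and 7.57 in control. Of the 4 with a lower DIO mean, Thy1 had the largest difference, -0.58 with overlap. Cnn1 and Myh11 lay within the sensory range. In limma 0 of the 10 passed the adjusted threshold, as did 0% of all genes, so that count cannot speak to the direction of the list. Its median difference was 0.23, against 0.02 over all genes, and the list was not tested as a set. These markers are those of another cell type, and their part in the results given here was not tested. Blood and macrophage markers averaged 6.01 and 6.01 in DIO and 5.95 and 5.95 in control. Ribosomal 18S RNA averaged 12.30 and 11.96 in DIO and 12.60 and 12.65 in control, so this measure of the RNA separated the groups. In such bulk samples, fewer cells of a type and less RNA per cell cannot be told apart.

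No detection calls were used, so 93 probe sets for olfactory, vomeronasal and taste receptors, genes thought to be silent outside sensory tissue, served as a rough gauge of dimness. Their median was 3.57 and their 95th percentile 4.72. Both adiponectin receptors, Jak2 and Socs3 were brighter than all 93 in every probe set. Of the 18 member probe sets, 3 lay under the 95th percentile: Lepr 1425873_a_at and the Cdh13 probe sets 1431824_at and 1454015_a_at. The hormones themselves were as dim as the gauge. Lep was at 3.70 and 3.87 in DIO and 3.40 and 3.49 in control, and Adipoq at 3.62 and 3.66 in DIO and 3.63 and 3.66 in control. Their means exceeded 53.8% and 57.0% of the sensory probe sets. Probe sets bind with different strength, so levels of different members are not ranked against each other.

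**Figure D1:**
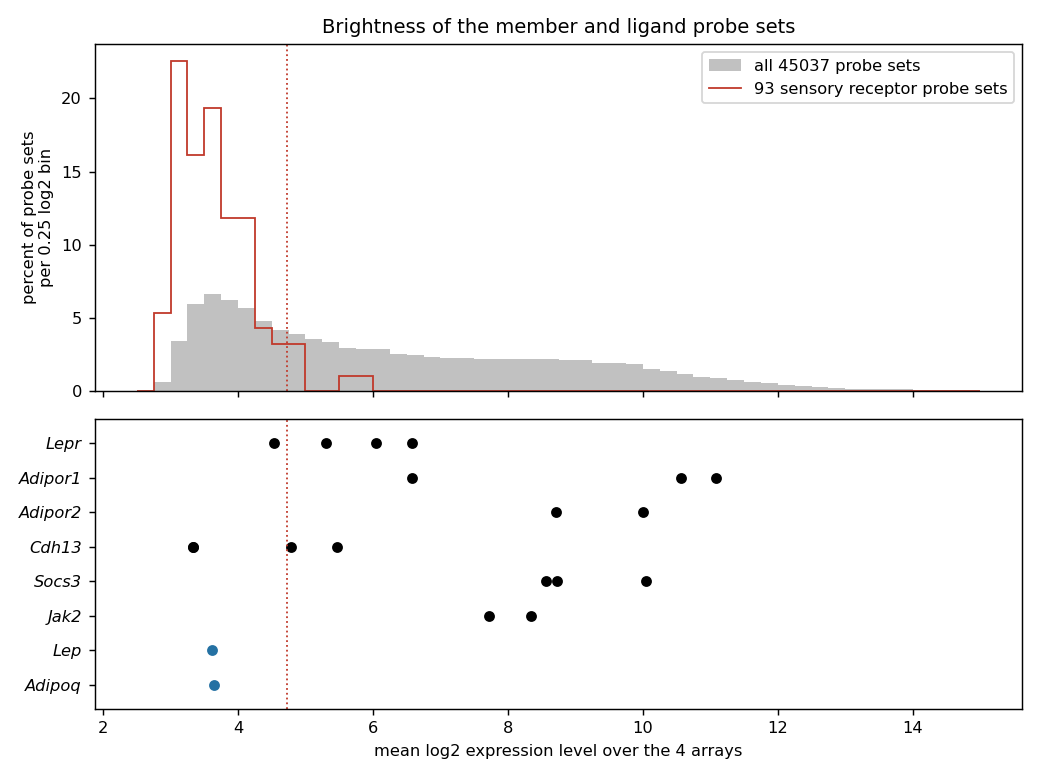
Top, distribution of the mean log2 expression level over the 4 arrays for all 45037 probe sets (grey) and 93 sensory receptor probe sets (red line), in percent per bin. Bottom, the same mean for each probe set of the members (black) and of the hormones (blue); the dotted line marks the sensory 95th percentile, 4.72, with Lep, Adipoq, 2 nearly coinciding Cdh13 points and 1 Lepr point to its left.

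Taken over all members, 0 of the 18 probe sets passed an adjusted p of 0.05 in limma, as did 0% of all probe sets. At an unadjusted p below 0.05 there were 3 of 18, against 9.29% of all probe sets. Jak2 1421065_at and Adipor1 1424312_at had lower DIO levels (5.17% of all probe sets), and Lepr 1425873_a_at had higher ones (4.12% of all). After quantile normalization, and with a trended and robust eBayes, the Jak2 and Adipor1 probe sets missed this threshold and 1 of 18 was left. The count was 1 without control 2, 0 without either DIO array and 7 without control 1. The DIO mean was lower for 13 of the 18 and for 47.6% of all probe sets, higher for 5 and for 52.4% of all, and the median difference was -0.21 against 0.01 over all. Both DIO arrays lay below both controls for 5 (19% of all probe sets), and above both for 4 (22.3% of all). The groups thus did not overlap for 9 of 18, against 41.3% of all probe sets. The 18 are repeated readings of 6 genes on the same arrays, so they are not independent. By the brightest probe set of each, the DIO mean was lower for 5 of the 6 genes, against 46.7% of all genes. Both DIO arrays lay below both controls for 3 of the 6 (17% of all genes) and above for 1 (21.4% of all genes). Brightness matters for this reading. Of the 12 member probe sets above the median level of all probe sets, 5.63, 11 had a lower DIO mean and 5 lay below both controls, where 55.3% and 25.0% of all probe sets that bright did so. Of the 6 dimmer ones, 2 had a lower DIO mean, against 39.8% of all dimmer probe sets. Without control 2 the split of the 18 was 9 lower and 9 higher, with a median of -0.02. With 2 arrays against 2, an exact 2-sided permutation test cannot give a p under 0.333.

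**Figure D2:**
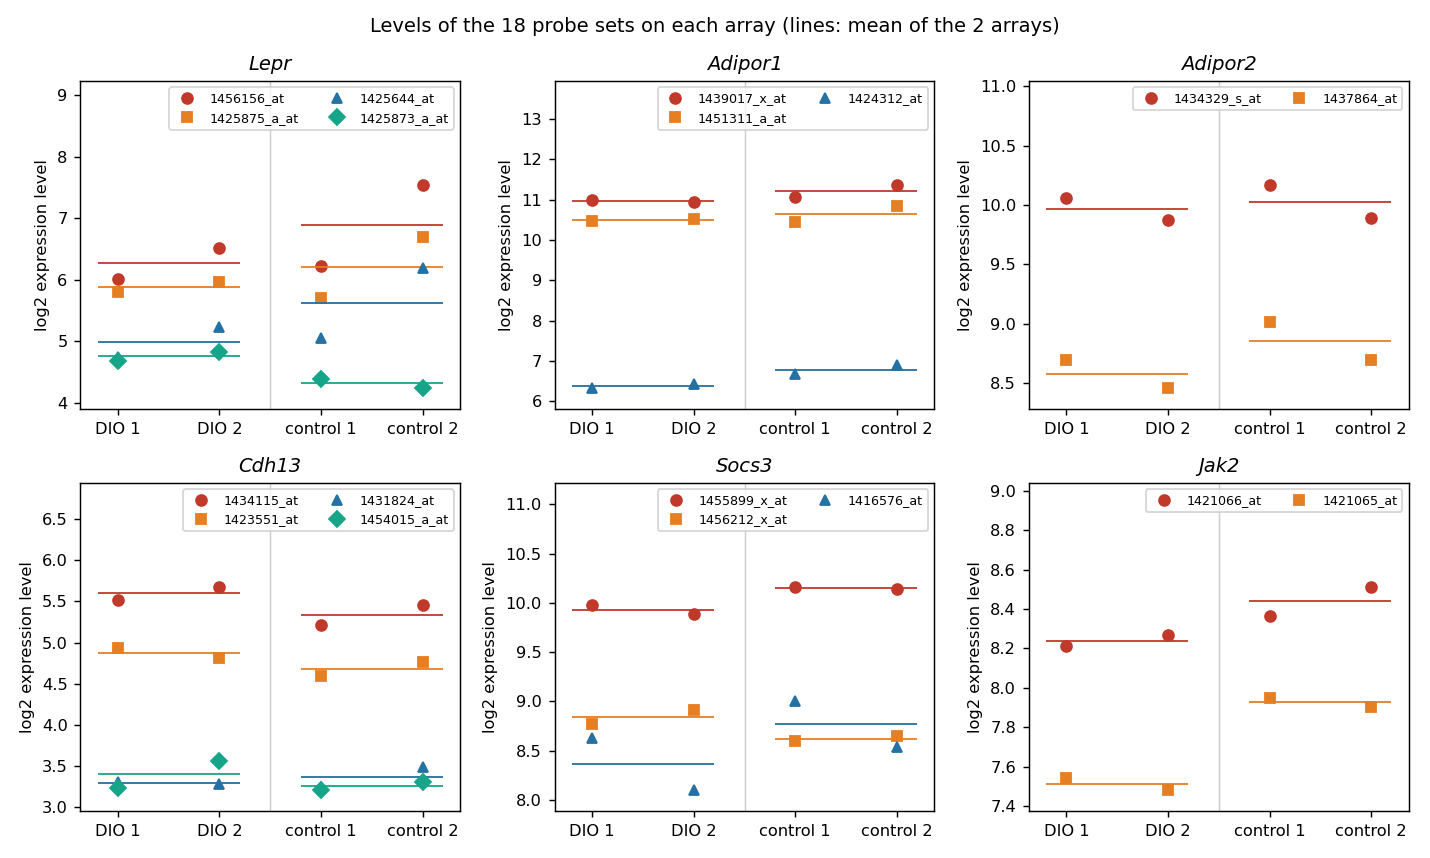
Log2 expression level of each of the 18 probe sets on each array, in a panel per gene with its own vertical scale; horizontal lines are the means of the 2 DIO and the 2 control arrays. Jak2 lies lower on both DIO arrays in both probe sets, 3 Lepr probe sets are highest in control 2, and the Socs3 probe sets differ in direction.

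Lepr, the leptin receptor, varied more between the 2 control arrays than between the groups in 3 of its 4 probe sets. The brightest, 1456156_at, was at 6.02 and 6.51 in DIO and 6.23 and 7.54 in control. Control 2 alone was high and the groups overlapped, with a difference of -0.62 ± 0.49 (SE) and a 95% interval of -1.93 to 0.69 (limma, adjusted p = 0.719). Probe set 1425644_at was at 4.75 and 5.23 in DIO and 5.06 and 6.20 in control, a difference of -0.64 ± 0.43. Probe set 1425875_a_at was at 5.80 and 5.96 in DIO and 5.71 and 6.69 in control, a difference of -0.32 ± 0.35. In these 3 probe sets, in the same order, control 2 exceeded control 1 by 1.32, 1.14 and 0.98 and DIO 2 exceeded DIO 1 by 0.49, 0.48 and 0.17.

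The remaining Lepr probe set, 1425873_a_at, had the opposite order. It was at 4.67 and 4.83 in DIO and 4.39 and 4.24 in control. Both DIO arrays lay above both controls and control 2 was the lowest array, with a difference of 0.44 ± 0.13 and an interval of 0.08 to 0.79 (limma, unadjusted p = 0.027, adjusted p = 0.531). Its mean exceeded 92.5% of the sensory probe sets, so it lay within their range. The suffix a_at marks probe sets that the manufacturer expected to bind several transcripts of the same gene, and Lepr is known to give long and short forms. Which form each probe set reads was not analysed here.

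The Lepr difference depended on which control array was used. Without control 2 it was 0.04 for 1456156_at, -0.07 for 1425644_at and 0.17 for 1425875_a_at. Without control 1 these were -1.28, -1.21 and -0.81. The fourth stayed higher in DIO, at 0.36 without control 2 and 0.51 without control 1. The epidermal list was highest in control 2 as well, as given above. Of 9 liver and endoderm markers, 5 were highest in control 2, and the list averaged 5.66 and 5.94 in DIO and 5.09 and 6.93 in control. Their part in the Lepr values was not tested.

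**Figure D3:**
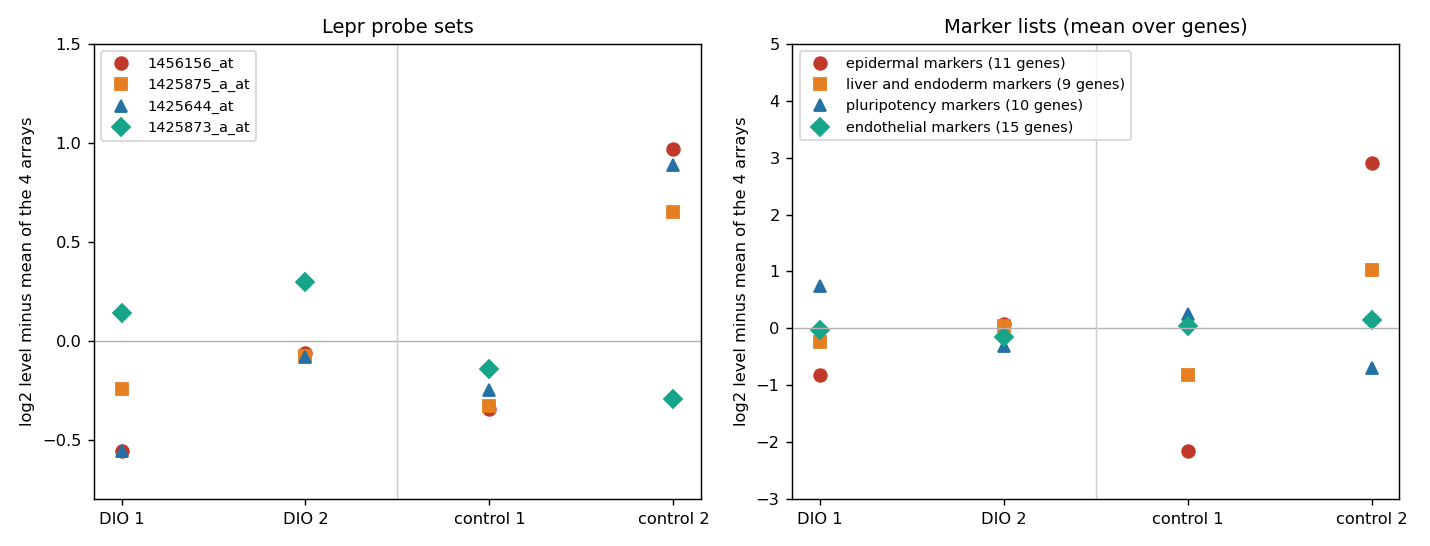
Left, log2 level of each Lepr probe set minus its mean over the 4 arrays; right, the same for the mean of 4 marker lists, on a wider scale. The 3 other Lepr probe sets and the epidermal and the liver and endoderm lists are highest in control 2, where 1425873_a_at and the pluripotency list are lowest.

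Adipor1, the adiponectin receptor more closely tied to AMPK, had lower DIO means in 3 of 3 probe sets. The brightest, 1439017_x_at, was at 10.99 and 10.95 in DIO and 11.07 and 11.37 in control. Both DIO arrays lay under both controls, by a small margin under control 1, and the difference was -0.25 ± 0.15 with an interval of -0.66 to 0.16 (limma, adjusted p = 0.648). Probe set 1424312_at was at 6.33 and 6.42 in DIO and 6.68 and 6.90 in control, without overlap. Its difference was -0.41 ± 0.14, a 0.751-fold level, with an interval of -0.78 to -0.04 (unadjusted p = 0.0354, adjusted p = 0.531 in limma). Probe set 1451311_a_at was at 10.47 and 10.51 in DIO and 10.44 and 10.85 in control. These groups overlapped, and its difference of -0.15 ± 0.18 became 0.05 without control 2. The brightest probe set was at -0.10 without control 2 and -0.40 without control 1.

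Adipor2, the receptor more closely tied to PPAR-alpha, showed overlapping groups in both probe sets. Probe set 1434329_s_at was at 10.06 and 9.87 in DIO and 10.17 and 9.89 in control, a difference of -0.06 ± 0.16 with an interval of -0.49 to 0.36 (limma, adjusted p = 0.922). Mouse 1 exceeded mouse 2 in either group, and the sign turned to 0.08 without control 1 and 0.03 without DIO 2. Probe set 1437864_at was at 8.70 and 8.46 in DIO and 9.02 and 8.69 in control, a difference of -0.28 ± 0.18 (adjusted p = 0.665 in limma). It ran from -0.44 to -0.11 with 1 array left out. Here only control 1 was clearly high.

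Cdh13, the endothelial adiponectin-binding cadherin, was dim, with 4 probe sets at or below the median level of all probe sets. The brightest, 1434115_at, was at 5.52 and 5.68 in DIO and 5.22 and 5.45 in control. Both DIO arrays lay above both controls, DIO 1 by little over control 2, and the difference was 0.26 ± 0.15 with an interval of -0.13 to 0.66 (limma, adjusted p = 0.627). With 1 array left out it ran from 0.15 to 0.38. Probe set 1423551_at was at 4.94 and 4.82 in DIO and 4.60 and 4.77 in control, again without overlap, with a difference of 0.19 ± 0.13. The other probe sets lay under most of the sensory gauge, exceeding 32.3% of it each. These were 1431824_at, at 3.31 and 3.28 in DIO and 3.25 and 3.49 in control, and 1454015_a_at, at 3.23 and 3.56 in DIO and 3.21 and 3.30 in control. Their differences, -0.07 ± 0.14 and 0.14 ± 0.16, turned sign without control 2 (0.05) and without DIO 2 (-0.02).

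Jak2, the kinase bound to the leptin receptor and to several other cytokine and growth hormone receptors, had lower levels on both DIO arrays in both probe sets. Probe set 1421065_at was at 7.54 and 7.48 in DIO and 7.95 and 7.90 in control. The arrays of a group lay close together and the groups were apart, with a difference of -0.41 ± 0.11, a 0.751-fold level, and an interval of -0.72 to -0.11. It did not pass over all probe sets (limma, unadjusted p = 0.0193, adjusted p = 0.531). Leaving out any 1 array kept it between -0.44 and -0.38. The brighter probe set, 1421066_at, was at 8.21 and 8.27 in DIO and 8.36 and 8.51 in control, a difference of -0.20 ± 0.12 (adjusted p = 0.657 in limma). Quantile normalization brought this difference to -0.11.

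Socs3, the feedback inhibitor, had probe sets that disagreed in direction without overlap. The brightest, 1455899_x_at, was at 9.98 and 9.89 in DIO and 10.16 and 10.14 in control, with both DIO arrays below and a difference of -0.22 ± 0.12 (limma, adjusted p = 0.605). Probe set 1456212_x_at was at 8.77 and 8.92 in DIO and 8.60 and 8.65 in control, with both DIO arrays above and a difference of 0.22 ± 0.12 (adjusted p = 0.621 in limma). Probe set 1416576_at was at 8.63 and 8.11 in DIO and 9.01 and 8.54 in control, a difference of -0.40 ± 0.26 that ran from -0.67 to -0.14 when 1 array was left out. Here DIO 1 lay above control 2, and mouse 1 exceeded mouse 2 in either group. The suffix x_at marks probe sets with some probes that may bind other transcripts. No direction for Socs3 as a gene can be given from these values.

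**Figure D4:**
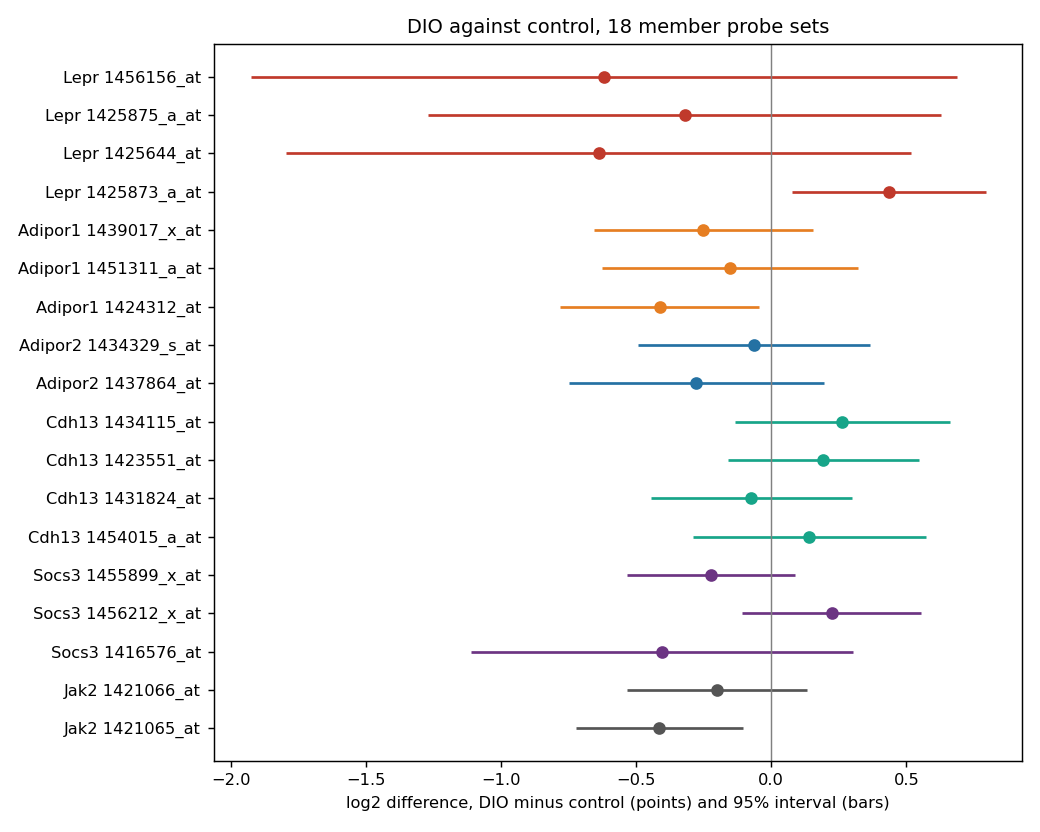
Log2 difference, DIO minus control (points), with its 95% interval from limma (bars), for the 18 probe sets, grouped by gene. Intervals of Lepr 1425873_a_at, Adipor1 1424312_at and Jak2 1421065_at leave out 0, and 0 of the 18 passed after adjustment over all probe sets.

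The wider pathway was followed in 11 lists of 92 gene symbols in all, of which 82 were measured, each by its brightest probe set, and in a fit over all 18193 genes. In limma, 0 of the 82 passed the adjusted threshold in either direction, as did 0% of all genes. At an unadjusted p below 0.05 there were 8 of 82, against 6.58% of all genes, of which 6 were lower in DIO (3.32% of all genes) and 2 higher (3.26% of all genes). The DIO mean was lower for 52 of 82, against 46.7% of all genes and 53.6% of those above the median gene level, and higher for 30, against 53.3% of all genes. Both DIO arrays lay below both controls for 24 (17% of all genes) and above for 10 (21.4% of all genes), so that groups did not overlap for 34 (38.4% of all genes). Of genes above the median level, 22.3% lay below and 14.8% above.

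All 10 measured genes of the leptin relay had lower DIO means. Their median difference was -0.26, against 0.02 over all genes and -0.02 over genes above the median level. Both DIO arrays lay below both controls for 5 of the 10, against 17% of all genes and 22.3% of those above the median level. The count of lower means was 9 without control 1, 9 without control 2 and 8 without DIO 1, 8 when all probe sets of each gene were averaged and 9 after quantile normalization. Stat3, the factor that JAK2 activates, was at 9.89 and 9.96 in DIO and 10.25 and 10.53 in control, without overlap, a difference of -0.47 ± 0.16 (limma, unadjusted p = 0.0394, adjusted p = 0.728).

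Other Stat3 probe sets were read in the fit over all probe sets. Probe set 1460700_at was at 9.47 and 9.63 in DIO and 9.87 and 9.99 in control, a difference of -0.39 ± 0.13. Probe set 1459961_a_at was at 6.37 and 6.35 in DIO and 7.01 and 7.16 in control, a difference of -0.73 ± 0.12 (limma, unadjusted p = 0.00302, adjusted p = 0.531). Both had each DIO array under each control. The fourth, 1424272_at, near the sensory range, was at 4.80 and 5.08 in DIO and 4.81 and 4.92 in control. Leaving out any 1 array kept the brightest between -0.61 and -0.32, 1460700_at between -0.47 and -0.30 and 1459961_a_at between -0.81 and -0.65.

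Of the other relay genes, Stat5a differed by -0.27 ± 0.14 without overlap, and Stat5b by -0.06 ± 0.14 with overlap. The other Stat5b probe set, 1422103_a_at, differed by -0.42 ± 0.21 without overlap. So did the other Stat5a probe set, 1450259_a_at, by -0.39 ± 0.20, within the sensory range. The adaptor Sh2b1, which raises JAK2 activity, differed by -0.04 ± 0.19, and the phosphatase Ptpn11, which links the receptor to the MAP kinase route, by -0.08 ± 0.13. Without control 1, Irs1, an insulin receptor substrate named after its values were seen, passed, as did 483 of all 18193 genes. Control 2 is then the lone control and is assumed to vary like the 2 DIO arrays, which alone give the spread. It was at 7.21 and 6.91 in DIO and 6.75 and 8.74 in control, so that control 2 alone was high.

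Genes that restrain the leptin signal had lower DIO means in 7 of 10, with a median of -0.11. The count was 4 of 10 and the median 0.04 when probe sets were averaged, and 5 of 10 and -0.02 without DIO 2, so the list has no settled direction. Ptpn1, the phosphatase that dephosphorylates JAK2, was at 9.94 and 9.89 in DIO and 10.12 and 10.54 in control. The difference was -0.41 ± 0.19 without overlap and ran from -0.62 to -0.20 with 1 array left out. Its other probe set, 1438670_at, was at 7.98 and 8.01 in DIO and 7.85 and 8.44 in control. That difference was -0.15 ± 0.23 with overlap. Ptpn2, a related phosphatase, was at 11.35 and 11.39 in DIO and 11.33 and 11.13 in control, a difference of 0.14 ± 0.14. The inhibitors Socs1, Socs2 and Cish differed by -0.04 ± 0.13, -0.44 ± 0.49 and 0.22 ± 0.19 with overlapping groups, and Socs2 was low in DIO 2 alone, at 8.38 against 9.76 in DIO 1. The dimmer Socs2 probe sets disagreed in direction. Of these, 1441476_at, within the sensory range, lay higher in DIO by 0.21 without overlap. With overlap, 1446085_at and 1438470_at differed by 0.33 and 0.15, and 1442586_at and 1418507_s_at by -0.12 and -0.08.

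Grb10, an adaptor that binds insulin and growth factor receptors, had the largest difference of the 82 genes and is named after its values were seen. Its brightest probe set was at 11.43 and 10.95 in DIO and 9.52 and 10.37 in control, a difference of 1.25 ± 0.36 (limma, unadjusted p = 0.0238, adjusted p = 0.728). Of its other probe sets, 1425457_a_at lay higher in DIO by 0.43 and 1430164_a_at lower by a difference of -0.46, each without overlap, so the probe sets of Grb10 disagree.

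**Figure D5:**
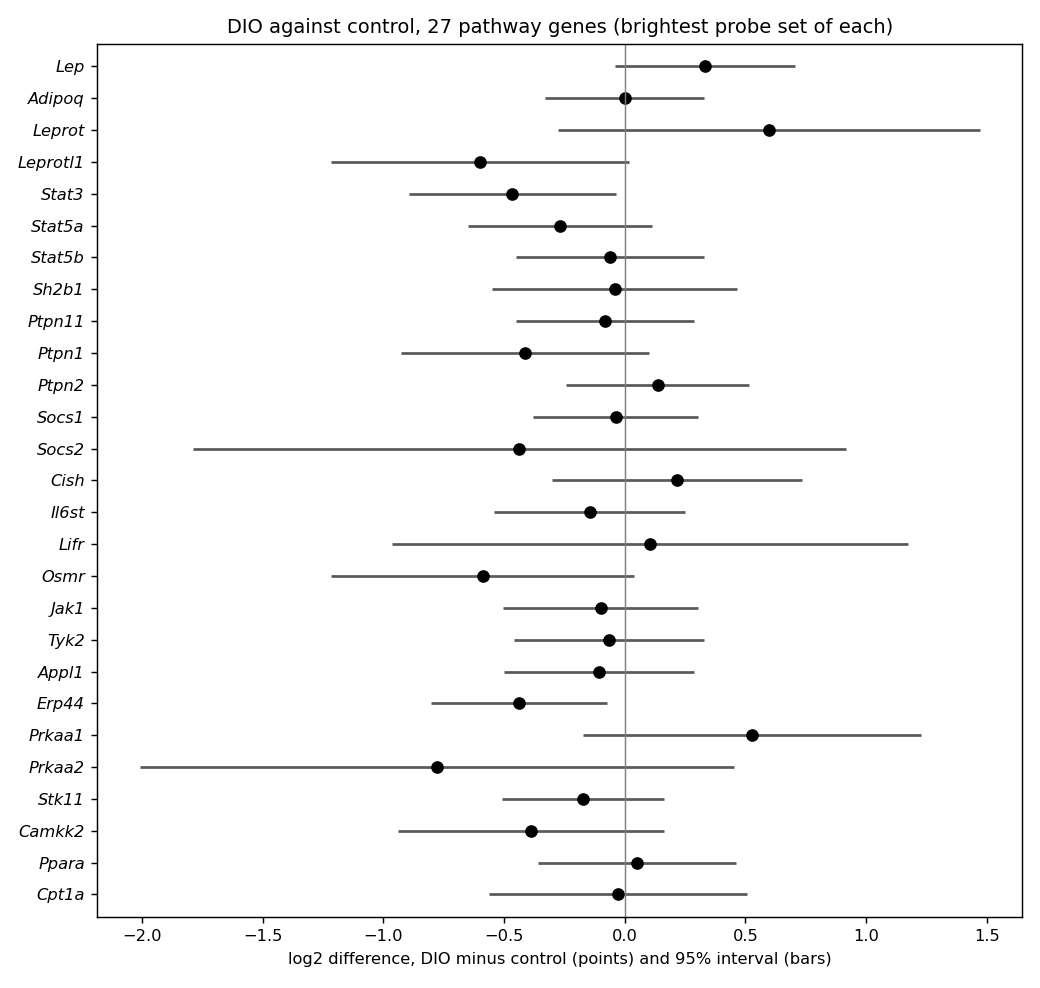
Log2 difference, DIO minus control (points), with its 95% interval from limma (bars), for 27 pathway genes chosen by role, each by its brightest probe set. The intervals of Stat3 and Erp44 leave out 0, and 0 of the 27 passed after adjustment over all genes.

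Of the other Janus kinases, Jak1 differed by -0.10 ± 0.15 and Tyk2 by -0.07 ± 0.14, and the groups overlapped in 3 of 3, Jak3 included. A further list held gp130, the product of Il6st, with other receptors of the JAK and STAT3 route and cytokines that bind some of them. It had 4 higher and 4 lower DIO means of 8 measured. Il6st differed by -0.14 ± 0.14 with overlap. Its probe set 1421239_at lay higher in DIO by 0.23 and 1437303_at lower by a difference of -0.34, each without overlap, while 1460295_s_at overlapped. Lifr, the receptor of leukemia inhibitory factor, was at 9.35 and 9.49 in DIO and 8.79 and 9.85 in control. Its probe set 1425107_a_at was at 5.57 and 5.29 in DIO and 5.75 and 6.93 in control. That difference was -0.91 without overlap, while 1450207_at overlapped, with a difference of 0.02. Osmr, the oncostatin M receptor, was at 7.33 and 7.14 in DIO and 7.56 and 8.09 in control, a difference of -0.59 ± 0.23 without overlap. Its dimmer probe sets lay within the sensory range. Of these, 1418675_at overlapped, with a difference of -0.14, and 1459217_at lay higher in DIO by 0.16 without overlap. Csf3r, the receptor of granulocyte colony-stimulating factor and named after its values were seen, was at 5.04 and 5.10 in DIO and 4.50 and 4.42 in control. Its difference was 0.61 ± 0.12 without overlap (limma, unadjusted p = 0.00749, adjusted p = 0.728), and its mean exceeded 94.6% of the sensory probe sets. Known STAT3 target genes had lower DIO means in 7 of 12, and their median difference was -0.16. In 5 of the 12 each DIO array lay under each control, as did 17% of all genes and 22.3% of those above the median level. In 2 of the 12 each DIO array lay above each control, as did 21.4% of all genes and 14.8% of those above the median level. Without control 2 the count was 6 of 12 and the median -0.01.

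Leprot and Leprotl1, membrane proteins that limit how much leptin and growth hormone receptor reaches the cell surface, lay on opposite sides. The Leprot probe set 1436900_x_at was at 9.95 and 9.88 in DIO and 8.89 and 9.74 in control, a difference of 0.60 ± 0.32 that came mostly from control 1. It was 0.17 without that array. Both other Leprot probe sets overlapped, with differences of -0.03 ± 0.18 and -0.11 ± 0.23. Leprotl1 was at 8.84 and 8.96 in DIO and 9.23 and 9.77 in control, a difference of -0.60 ± 0.23. Its other probe set was at 7.49 and 7.57 in DIO and 7.58 and 8.43 in control. Here the groups were apart by only 0.008, control 2 alone was high, and the difference ran from -0.91 to -0.05 with 1 array left out.

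On the adiponectin side, adaptors and handling proteins had lower DIO means in 3 of 5, and in 2 of 5 when probe sets were averaged. Appl1, the adaptor that binds the inner part of the adiponectin receptors, was at 8.99 and 8.99 in DIO and 9.21 and 8.98 in control. Its probe sets 1444478_at and 1455159_at overlapped as well. Probe set 1436116_x_at, within the sensory range, was at 4.61 and 4.97 in DIO and 4.05 and 4.10 in control. Its difference was 0.71 ± 0.17 without overlap (limma, unadjusted p = 0.0107, adjusted p = 0.531), so the probe sets of Appl1 disagree. Erp44, an endoplasmic reticulum protein that retains adiponectin in fat cells, was at 10.17 and 10.13 in DIO and 10.50 and 10.67 in control, without overlap, a difference of -0.44 ± 0.13 (limma, unadjusted p = 0.0291, adjusted p = 0.728). Its other probe set differed by 0.05 ± 0.12 with overlap.

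The AMPK list had lower DIO means in 8 of 14, with a median of -0.03. Its direction turned with the setting: 6 of 14 were lower with a median of 0.11 without control 1, of 0.12 for averaged probe sets and of 0.03 after quantile normalization, and 10 of 14 with a median of -0.12 without control 2. Its catalytic subunits lay on opposite sides. Prkaa1 was at 6.88 and 7.26 in DIO and 6.28 and 6.81 in control, a difference of 0.53 ± 0.26 without overlap. Prkaa2 was at 7.37 and 6.64 in DIO and 7.27 and 8.29 in control, a difference of -0.78 ± 0.45 with overlap. With 1 array left out, Prkaa1 ran from 0.26 to 0.79 and Prkaa2 from -1.29 to -0.27. The upstream kinases Stk11 and Camkk2 differed by -0.17 ± 0.12 and -0.39 ± 0.20, each with both DIO arrays below, and Camkk2 ran from -0.59 to -0.19 with 1 array left out. The sign of Stk11 turned when its probe sets were averaged. Acaca, the acetyl-CoA carboxylase that AMPK inhibits, is named after its values were seen. It was at 8.17 and 8.17 in DIO and 8.71 and 8.68 in control, a difference of -0.52 ± 0.12 (limma, unadjusted p = 0.0109, adjusted p = 0.728).

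PPAR-alpha genes and ceramidases had lower DIO means in 5 of 9, with a median of -0.03, and in 4 of 9, with a median of 0.09, without control 2. Ppara itself was at 5.68 and 5.89 in DIO and 5.66 and 5.81 in control, a difference of 0.05 ± 0.15. Cpt1a, its target that admits fatty acids to mitochondria, differed by -0.03 ± 0.20. The PAQR family, to which both adiponectin receptors belong, had lower DIO means in 5 of 7 further members, and in 3 of 7 without DIO 2. Paqr8, a progestin receptor named after its values were seen, was at 7.49 and 7.41 in DIO and 8.13 and 9.08 in control, a difference of -1.16 ± 0.35 (limma, unadjusted p = 0.0291, adjusted p = 0.728). All 4 of its probe sets had both DIO arrays below both controls. Without control 1, where control 2 stands alone, Paqr8, Paqr5 and the ceramidase Asah2 were also among the 483 genes that passed, and 0 of the 82 genes passed when any other array was left out. The epidermal list was highest in control 2, which was also the highest array for Paqr8, Paqr5 and Asah2, and its part in these values was not tested.

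Patterns most like those of the members were sought among genes above the median level, by the root mean squared difference over the 4 arrays after each gene was centred on its mean. Lepr, which deviated from its mean by 0.59 on this measure, was nearest to Ammecr1 at 0.07 and to Sdc1, a cell surface proteoglycan, at 0.11. Ammecr1 was at 6.77 and 7.23 in DIO and 7.12 and 8.26 in control, and Sdc1 at 9.72 and 10.28 in DIO and 9.77 and 11.05 in control, so that both were highest in control 2. Within 0.1 of Lepr there was 1 gene of 8912. The other members deviated by 0.12 to 0.17, so likeness to them says less. Adipor1 was nearest to Fam241b and Amot with 437 genes within 0.1, Adipor2 to Spns1 and Gigyf1 with 1516, and Cdh13 to Tuba1a and Pet100 with 248. Socs3 was nearest to Ints11 and Kifbp with 1071 genes within 0.1, and Jak2 to Vti1b and Bspry with 749.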

How the data were processed

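The authors deposited a table of log2 expression, with a value for each probe set and array. Biotin-labelled RNA was hybridized to Affymetrix 3' expression arrays, per the labels' protocols, and how signals were corrected, normalized and summarized is not given in the sources used here. That the log base is 2 was read from the range of values, 2.59 to 14.56, where a natural log of a 16-bit signal ends at 11.09. Array medians were 5.61 and 5.60 in DIO and 5.63 and 5.64 in control.

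Of 45101 probe sets, 64 manufacturer controls were left out. Names came from the platform annotation: 34945 probe sets had 1 symbol, 932 had several and 9160 were not listed. The 2 groups were fitted with lmFit and eBayes (limma 3.58.1, R 4.3.3), with 2-sided p-values adjusted by Benjamini-Hochberg at a threshold of 0.05, over 45037 probe sets for the members and over 18193 genes, each by its brightest probe set, for the lists. The number of arrays limits the precision: the median gene had a 95% interval of 0.46 on each side of its difference. Tried besides were quantile normalization, centring, a filter on dim probe sets, averaged probe sets, a trended and robust eBayes, leaving out each array and a block for mouse number.

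Named were the members, 28 genes chosen by role (27 measured, Appl2 not analysed here), any further pathway gene past the threshold, and the 2 genes nearest in pattern to each member. Grb10, Acaca, Csf3r, Irs1, Paqr5, Paqr8 and Asah2 were named outside this rule, after their values were seen, as were single marker genes. The members and lists were chosen with earlier results of these data known.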

Additional observations from a re-analysis of the deposited data

How the results depend on the processing

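No member passed the adjusted threshold under any alternative, and under alternatives other than leaving out an array all 6 member genes and 18 member probe sets kept their sign where they were tested (without the dimmest 40%, Cdh13 was not tested in the fit over genes, nor were Lepr 1425873_a_at and Cdh13 1423551_at, 1431824_at and 1454015_a_at in the fit over probe sets). Leaving out each array in turn gave 0 to 483 genes and 0 to 592 probe sets past the adjusted threshold, and 171 to 3689 genes and 939 to 7985 probe sets at an unadjusted p below 0.05. The 483 and 592 came without control 1 and the other arrays gave 0. Past the threshold were then 0 to 4 of all pathway genes, 0 to 2 of the PAQR family, 0 to 1 of the leptin relay and 0 to 1 of the PPAR-alpha list. Without the dimmest 40%, 607 genes and 2460 probe sets had an unadjusted p below 0.05, with fewer tested. Of the 1198 such genes in the comparison as reported, 594 were higher and 604 lower in DIO, against 771 and 473 after quantile normalization and 216 and 391 without the dimmest 40%. The cause of each reversal below was not tested. With 1 array left out, the difference ranged from -1.28 to 0.038 for Lepr (1456156_at) and from -0.81 to 0.17 for its 1425875_a_at. It ranged from -0.20 to 0.076 for Adipor2 (1434329_s_at), -0.35 to 0.049 for Adipor1 1451311_a_at, -0.19 to 0.047 for Cdh13 1431824_at and -0.024 to 0.31 for its 1454015_a_at. Among partners it ranged from -0.022 to 0.022 for Adipoq, -0.17 to 0.049 for Stat5b, -0.23 to 0.14 for Sh2b1, -0.093 to 0.016 for Socs1, -1.12 to 0.25 for Socs2, -0.43 to 0.64 for Lifr, -0.21 to 0.0079 for Jak1, -0.17 to 0.040 for Tyk2, -0.22 to 0.011 for Appl1, -0.054 to 0.16 for Ppara and -0.23 to 0.17 for Cpt1a. For Stat3 1424272_at it ran from -0.062 to 0.21, and for Leprot from -0.20 to 0.14 in 1424438_a_at and -0.34 to 0.13 in 1451350_a_at. Quantile normalization turned Adipoq to -0.049, Sh2b1 to 0.0051, Tyk2 to 0.023, Cpt1a to 0.049 and Leprot 1424438_a_at to 0.037, and centring turned Cpt1a to 0.0015. Averaged probe sets turned Sh2b1 to 0.028, Socs2 to 0.0084, Lifr to -0.26, Tyk2 to 0.027, Appl1 to 0.11, Stk11 to 0.10 and Cpt1a to 0.21. The mouse numbers are shared by the groups but no label says that they pair the mice. Differences between mouse 1 and mouse 2 correlated at 0.333 over genes between the groups, and with the number as a replicate block 0 genes passed and 982 had an unadjusted p below 0.05. No member passed the adjusted threshold with the block, while at the unadjusted one Lepr 1425873_a_at moved out and Socs3 1416576_at moved in. With 2 arrays per group and no detection calls, small differences of dim probe sets such as those of Cdh13 cannot be resolved.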
